A study of Cricetiscus sungorus with 12 samples.

Results

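Antioxidant defence was followed through 10 genes in the hypothalamus of Djungarian hamsters (Phodopus sungorus), a small rodent that lowers its body temperature for some hours a day in winter. The genes were defined by their mouse GeneIDs and not by a cutoff on a measured value. Like the lists of other genes below, the 10 genes were chosen with earlier results of these data known. They are Nfe2l2 (18024), Sod1 (20655), Sod2 (20656), Cat (12359), Gpx1 (14775), Gpx4 (625249), Prdx1 (18477), Hmox1 (15368), Nqo1 (18104) and Txnip (56338), which makes 10 of the 17191 GeneIDs in the data. All 10 had a record. Every record joins those hamster transcripts whose best protein match was that mouse gene, so that isoforms and close paralogs cannot be separated.

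mRNA of 12 adult, outbred hamsters was sequenced in 3 groups of 4. LP-NT hamsters stayed in summer-like long photoperiod (16 h of light and 8 h of dark), were normothermic and carried no transmitter. SP-NT hamsters were acclimated to winter-like short photoperiod (8 h of light and 16 h of dark) and were normothermic, and SP-HT hamsters came from the same photoperiod and were hypothermic in a spontaneous torpor bout. All were sampled at about ZT 4, that is 4 h after lights on, and all short photoperiod hamsters carried an implanted temperature transmitter and had shown torpor before. Photoperiod and transmitter therefore cannot be told apart in comparisons with LP-NT.

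Nfe2l2 encodes Nrf2, the transcription factor that controls a large part of the cell's antioxidant genes. In unstressed cells, Keap1 holds Nrf2 in the cytoplasm and passes it to a Cul3 ubiquitin ligase for degradation. Oxidants modify Keap1, Nrf2 accumulates, and with a small Maf partner it activates genes such as Hmox1, Nqo1, Prdx1 and those of glutathione synthesis. Much of this control acts on the Nrf2 protein, which mRNA does not show. Superoxide dismutases turn superoxide into hydrogen peroxide, and catalase, glutathione peroxidases and peroxiredoxins remove that peroxide. In hibernators and in animals with daily torpor, this system is of interest because oxygen consumption falls on entry and rises steeply on rewarming.

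Expected counts summed to between 20204979 and 24186918 per hamster. Markers of hypothalamic neurons were present, although Pmch and Agrp stayed under 1 CPM (expected counts scaled to the size of each library, with TMM factors over the 12 hamsters). LP-NT 01 stood apart from the others, as it had the highest CPM of all hamsters in 29.3% of the 10228 genes with a mean of at least 10 CPM and was the one hamster with more than 2 counts of the pituitary hormones Gh (37 counts) and Prl (68 counts). The summed pituitary list was 17.9 to 55.3 CPM in LP-NT, 0.907 to 2.10 CPM in SP-NT and 0.343 to 2.36 CPM in SP-HT. Most of it in LP-NT was Cga (16.2 to 45.5 CPM) and Tshb (1.64 to 5.11 CPM). The study reports both genes as lower in short photoperiod, so the sum does not measure pituitary tissue apart from photoperiod. The list for ependyma and tanycytes, of 3 genes (Rax, Foxj1 and Dynlrb2), was 5.73 to 8.46 CPM in LP-NT, 5.12 to 6.30 CPM in SP-NT and 3.34 to 4.95 CPM in SP-HT. The other 8 marker lists overlapped between all groups. Among single hamsters, SP-HT 10 had the lowest sum for hypothalamic neurons (351 CPM, against 460 to 695 CPM in the others). It also had the highest sums for astrocytes (1973 CPM) and microglia (133 CPM). For oligodendrocytes the sum was 7408 CPM in SP-HT 10 and 7911 CPM in SP-HT 26, against 4422 to 6051 CPM in the other hamsters. LP-NT and SP-NT each had 2 males and 2 females as labelled and SP-HT had 3 males and 1 female, and SP-NT 19 is labelled male but had 0 counts of the Y-linked genes Kdm5d and Uty. Of the cold-inducible genes looked at, Cirbp overlapped between the samples labelled SP-HT (165.7 to 193.3 CPM) and SP-NT (172.6 to 205.8 CPM). Rbm3 was higher in SP-HT (15.6 to 26.6 CPM) than in SP-NT (11.7 to 14.1 CPM, adjusted p = 0.0329, edgeR's quasi-likelihood test). A second record, Rbm3-ps, went the other way (2.51 to 4.03 CPM against 13.3 to 16.6 CPM, adjusted p = 0.000214, edgeR). The study describes this second record as higher in torpor, which is the opposite of what the sample labels give here. It also reports more genes higher than lower in torpor with its own test, whereas edgeR called 82 genes higher and 307 lower in SP-HT. Rbm3 and Rbm3-ps point in opposite directions. In SP-HT, Kdm5d and Uty followed the labelled sex of every hamster, with 3 males and 1 female. Whether the labels or the direction printed by the study are reversed was not tested. Every sign of a difference between SP-HT and another group below, including each "higher" or "lower", therefore rests on the labels of the samples, and SP-HT and SP-NT stand for the hamsters labelled so.

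Per length, Sod1 was the most abundant of the 10 genes, with 237 ± 26.8 TPM (a unit scaled to library and transcript length, in which levels of different genes can be compared; SD, n = 12). Prdx1 followed with 196 ± 16.0 TPM, and both overlapped over the 12 hamsters. Sod2 had 121 ± 4.74 TPM and lay below Prdx1 in every hamster, while it overlapped with Gpx1 at 108.8 ± 7.52 TPM. A gap without overlap separated Gpx1 from Hmox1 at 44.7 ± 3.15 TPM, which overlapped with Cat at 41.7 ± 3.45 TPM. Txnip (30.4 ± 3.36 TPM), Nfe2l2 (25.4 ± 3.49 TPM) and Nqo1 (20.1 ± 6.21 TPM) came next, each overlapping with its neighbours in this order. Gpx4 was last at 2.99 ± 2.47 TPM, a value that rests on 16 counts in all of a short record and is no measure of the whole Gpx4 mRNA. The cytosolic dismutase and the peroxiredoxin were thus among the more abundant transcripts, since the mean TPM of Sod1 exceeded that of 96.4% and that of Prdx1 exceeded that of 95.3% of all GeneIDs, against 57.2% for Nfe2l2.

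**Figure D1:**
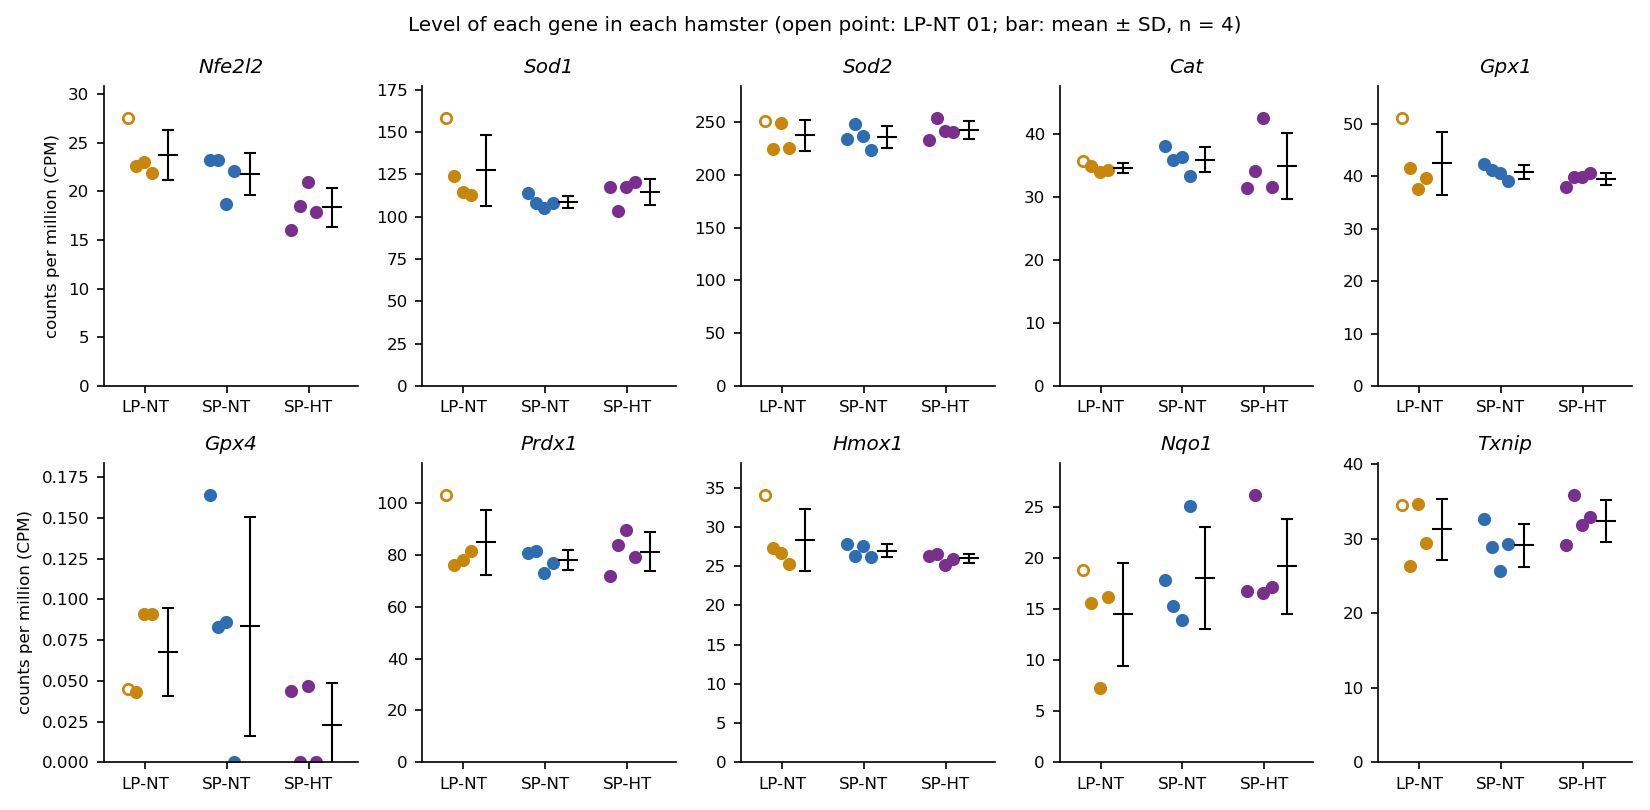
Level of each of the 10 genes in each hamster, in CPM on a linear axis from 0, by group, with LP-NT 01 as an open point and the mean ± SD of 4 hamsters as a black bar. The mean of Nfe2l2 is 23.8 CPM in LP-NT, 21.8 CPM in SP-NT and 18.3 CPM in SP-HT, LP-NT 01 lies highest for Nfe2l2, Sod1, Gpx1, Prdx1 and Hmox1, and Gpx4 stays under 0.17 CPM.

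With an adjusted p threshold of 0.05 over all genes, edgeR's quasi-likelihood test called 0 of the 10 genes in photoperiod (SP-NT against LP-NT), 0 of 10 in torpor (SP-HT against SP-NT) and 0 of the 9 tested in SP-HT against LP-NT. The share of all genes called was 0.0370% for photoperiod, 2.40% for torpor and 1.37% for SP-HT against LP-NT. An unadjusted p under 0.05 was reached by 1 of the 10 genes in each comparison, Sod1 for photoperiod and Nfe2l2 in the other two, against a share of 4.84%, 18.4% and 15.1% of all genes in the same order. DESeq2 called 0, 0 and 1 of them, the 1 being Nfe2l2 in SP-HT against LP-NT, with 0.204%, 6.28% and 4.37% of all genes called. The groups did not overlap in CPM for 0, 0 and 1 of the genes, again Nfe2l2, beside 3.44%, 12.1% and 10.6% of all genes. SP-HT against LP-NT shares its samples with both other comparisons, and its values stand beside theirs without being independent of them. Over the antioxidant genes tested, the log2(FC) had a median of -0.06 for photoperiod, -0.0019 for torpor and -0.06 for SP-HT against LP-NT, and its size without sign had a median of 0.11, 0.06 and 0.10. Over all genes tested, the median size was 0.09, 0.12 and 0.13.

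**Figure D2:**
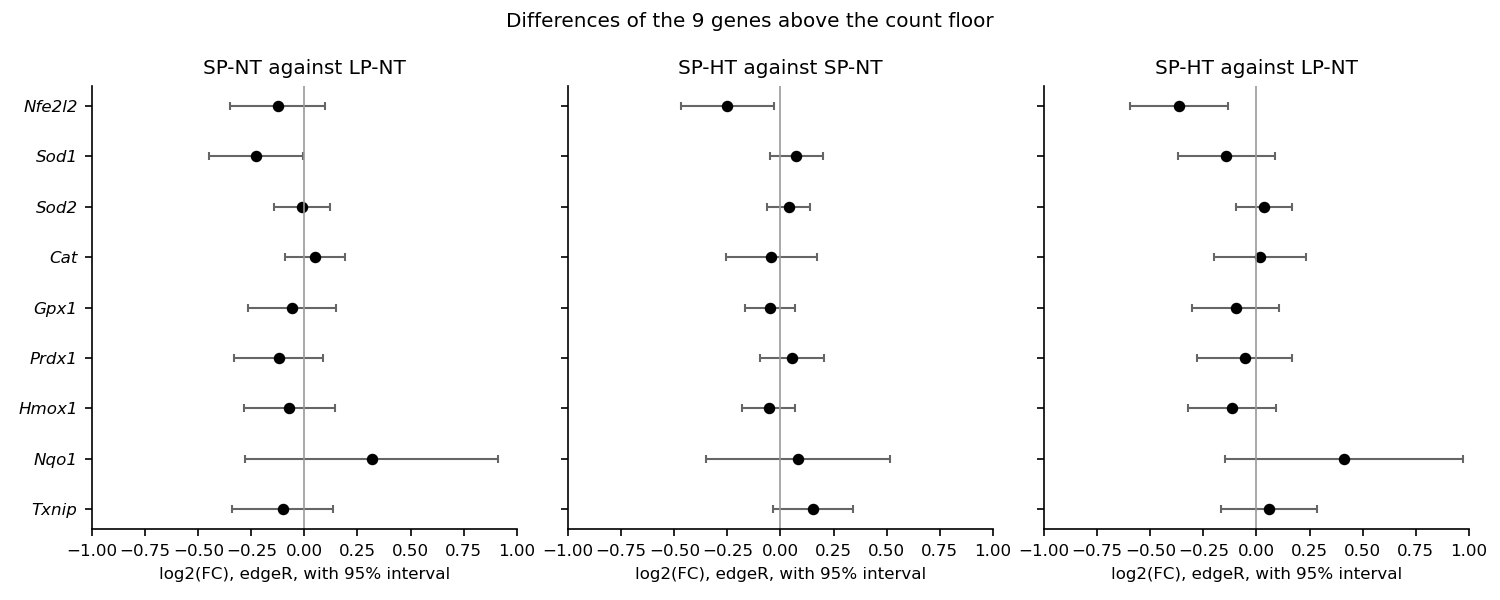
Log2(FC) of 9 genes in the 3 comparisons (edgeR, horizontal axis) with 95% intervals, which are not adjusted for the number of genes. Gpx4 is left out for its low counts, and only the intervals of Sod1 in photoperiod and of Nfe2l2 in both comparisons with SP-HT lie on one side of 0.

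Nfe2l2 averaged 23.8 ± 2.55 CPM in LP-NT, 21.8 ± 2.15 CPM in SP-NT and 18.3 ± 2.02 CPM in SP-HT (SD, n = 4), a difference that did not pass the adjusted threshold of edgeR in any comparison. Its CPM was 27.5, 22.6, 23.0 and 21.9 in LP-NT 01, 02, 03 and 05, 23.2, 23.2, 18.6 and 22.1 in SP-NT 19, 36, 37 and 38, and 16.0, 18.5, 20.9 and 17.9 in SP-HT 02, 10, 26 and 33. All SP-HT values lay below all LP-NT values, whereas SP-NT 37 lay within the range of SP-HT. The log2(FC) in torpor was -0.25 ± 0.10 (SE, 95% interval from -0.47 to -0.03), with an unadjusted p of 0.0289 and an adjusted p of 0.217 in edgeR. Ranked by p, Nfe2l2 was gene 2152 of the 16195 tested. Its log2(FC) was -0.37 ± 0.10 (SE, 95% interval from -0.60 to -0.14) in SP-HT against LP-NT (adjusted p = 0.125, edgeR) and -0.13 ± 0.10 in photoperiod (adjusted p = 0.913, edgeR). In DESeq2, the adjusted p in SP-HT against LP-NT was 0.0492, just under the threshold, and over all alternatives of that comparison it was at least this value. The log2(FC) kept its sign in every alternative and with each hamster left out, from -0.32 to -0.19 in torpor and from -0.43 to -0.29 in SP-HT against LP-NT with one hamster left out. The ependyma and tanycyte list was lower in SP-HT than in both other groups, as given above. Within SP-HT the list was lowest in SP-HT 26, where Nfe2l2 was highest, and highest in SP-HT 02, where Nfe2l2 was lowest. The part of this list in the level of Nfe2l2 was not tested. Fewer cells that express a gene and less RNA per cell cannot be told apart in such bulk samples.

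The partners and regulators of Nrf2 were taken from a list of 9 genes, all with a record. EdgeR called 0 of them in any comparison. An unadjusted p under 0.05 was reached by 0 of 9 in photoperiod, 4 of 9 in torpor and 3 of 9 in SP-HT against LP-NT (edgeR), beside 4.84%, 18.4% and 15.1% of all genes. DESeq2 called 2 of them in torpor, Mafg and Cul3, beside 6.28% of all genes. Mafg, a small Maf protein that pairs with Nrf2 on DNA, averaged 16.2 ± 1.39 CPM in SP-HT and 20.2 ± 0.62 CPM in SP-NT (SD, n = 4), with a log2(FC) of -0.32 ± 0.08 (SE, adjusted p = 0.0586 in edgeR and 0.0142 in DESeq2). Cul3, the scaffold of the ligase that marks Nrf2 for degradation, averaged 216 ± 8.67 CPM in SP-HT and 191 ± 9.53 CPM in SP-NT, with a log2(FC) of 0.17 ± 0.05 (SE, adjusted p = 0.0955 in edgeR and 0.0213 in DESeq2). The largest log2(FC) of the list in torpor, 0.42 ± 0.19 (SE, unadjusted p = 0.0505 and adjusted p = 0.273 in edgeR), was that of Maff, another small Maf protein, which averaged 2.24 ± 0.24 CPM in SP-HT and 1.68 ± 0.32 CPM in SP-NT. The groups did not overlap for these 3 of the 9 genes, with Mafg lower and Cul3 and Maff higher in SP-HT, beside 12.1% of all genes. Bach1, a repressor that competes with Nrf2 at the Hmox1 gene, gave a log2(FC) of -0.21 (adjusted p = 0.193, edgeR), and Keap1 gave -0.05 (adjusted p = 0.678, edgeR). Nfe2l1 and Sqstm1, the most abundant genes of the list at 239 ± 11.5 TPM and 158 ± 6.77 TPM (SD, n = 12), had a log2(FC) between -0.06 and 0.02 in all 3 comparisons. The median of the list was -0.03, 0.02 and -0.03 in photoperiod, torpor and SP-HT against LP-NT.

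The cytosolic copper and zinc dismutase Sod1 was highest in a single hamster. It had 158, 124, 115 and 113 CPM in LP-NT 01, 02, 03 and 05, 114, 108, 105 and 108 CPM in SP-NT 19, 36, 37 and 38, and 118, 103, 118 and 120 CPM in SP-HT 02, 10, 26 and 33. The ranges of LP-NT and SP-NT met only through SP-NT 19 and LP-NT 05. The log2(FC) for photoperiod was -0.23 ± 0.10 (SE, 95% interval from -0.45 to -0.01), with an unadjusted p of 0.0448 and an adjusted p of 0.913 in edgeR. Without LP-NT 01 it was -0.11 (adjusted p = 0.996, edgeR). In torpor the log2(FC) of Sod1 was 0.07, with a 95% interval from -0.05 to 0.20.

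Sod2, the manganese dismutase of mitochondria, was the steadiest of the genes. Its level ran from 224 to 252 CPM in LP-NT, from 223 to 249 CPM in SP-NT and from 233 to 254 CPM in SP-HT, so that the highest hamster of all 12 exceeded the lowest by a factor of 1.14. The SD of log2(CPM + 0.1) around the group means was 0.07, larger than in no more than 12.1% of the genes with a mean of at least 10 CPM. The 95% interval of the log2(FC) was -0.14 to 0.12 for photoperiod and -0.06 to 0.14 for torpor, so that changes of up to 0.14 in size lie within these intervals. Of the other genes of superoxide removal, Ccs, the chaperone that loads copper into Sod1, had a torpor log2(FC) of -0.10 (adjusted p = 0.548, edgeR), and the extracellular Sod3 had -0.11 (adjusted p = 0.771, edgeR), and neither was called in any comparison.

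Catalase, which splits hydrogen peroxide in peroxisomes, overlapped between all groups. Cat was 35.6, 34.8, 33.8 and 34.2 CPM in LP-NT 01, 02, 03 and 05, 38.0, 35.8, 36.2 and 33.2 CPM in SP-NT 19, 36, 37 and 38, and 31.3, 34.0, 42.4 and 31.5 CPM in SP-HT 02, 10, 26 and 33. SP-HT held both the highest and the lowest value of the 12 hamsters, and the SD was 0.79 CPM in LP-NT, 1.97 CPM in SP-NT and 5.22 CPM in SP-HT, a difference in spread that was not tested. The torpor log2(FC) was -0.04 (95% interval from -0.26 to 0.17) and became -0.15 without SP-HT 26 and 0.01 without SP-HT 02.

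Gpx1, the cytosolic glutathione peroxidase, ran from 37.5 to 51.1 CPM in LP-NT, from 39.1 to 42.4 CPM in SP-NT and from 37.9 to 40.5 CPM in SP-HT. The 51.1 CPM belonged to LP-NT 01, and the other 11 hamsters lay between 37.5 and 42.4 CPM. The log2(FC) was -0.06 (95% interval from -0.27 to 0.15) for photoperiod and -0.05 (95% interval from -0.17 to 0.07) for torpor. Leaving out LP-NT 01 turned the photoperiod value to 0.04.

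Gpx4, which reduces lipid peroxides within membranes, was at the floor of these data. Its record consisted of 1 transcript with an effective length of 48.2 to 60.4 bases, and it held 6 counts over LP-NT, 8 counts over SP-NT and 2 counts over SP-HT. No hamster had more than 4 counts. In SP-NT 38, SP-HT 10 and SP-HT 33 the count was 0, which allows a level of up to 0.121, 0.145 and 0.147 CPM, where the limit of 3 counts covers counting error only. The torpor log2(FC) of -1.62 had a 95% interval from -3.90 to 0.67 (adjusted p = 0.438, edgeR), and SP-HT against LP-NT was not tested because fewer than 10 counts were present. How much of the hamster's Gpx4 mRNA this short record holds is unknown, and a difference was not detectable with so few counts.

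Prdx1, a cytosolic peroxiredoxin that is recycled by thioredoxin, ran from 76.1 to 103 CPM in LP-NT, from 72.8 to 81.3 CPM in SP-NT and from 71.7 to 89.5 CPM in SP-HT. Again LP-NT 01 was highest, while the other 11 hamsters lay between 71.7 and 89.5 CPM. The log2(FC) was -0.12 (95% interval from -0.33 to 0.09) for photoperiod and 0.05 (95% interval from -0.10 to 0.21) for torpor, and without LP-NT 01 the photoperiod value was -0.01.

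The enzymes around these peroxidases were summed up by list. Of 12 genes of glutathione synthesis and use, 10 genes of the thioredoxin and peroxiredoxin system, 6 genes of NADPH supply and 4 genes of selenoprotein synthesis, edgeR and DESeq2 called 0 in each of the 3 comparisons. Over all genes, edgeR called 0.0370%, 2.40% and 1.37% in photoperiod, torpor and SP-HT against LP-NT, and DESeq2 called 0.204%, 6.28% and 4.37%. An unadjusted p under 0.05 in edgeR was reached by 1 of these 32 genes in photoperiod (G6pdx, the entry enzyme of the pentose phosphate pathway), by 1 in torpor (Me1, a malic enzyme that supplies NADPH) and by 2 in SP-HT against LP-NT (G6pdx and Gpx7). Among all genes the share was 4.84%, 18.4% and 15.1% in the same order. The median torpor log2(FC) was -0.04 for the glutathione list, -0.02 for the thioredoxin list, 0.03 for NADPH supply and -0.01 for selenoprotein synthesis, beside -0.0027 for all genes tested. The most abundant genes were the glutathione transferase Gstm1 at 2451 ± 579 TPM, thioredoxin Txn1 at 228 ± 18.8 TPM, the pentose phosphate enzyme Pgd at 170 ± 18.6 TPM and the selenium carrier Selenop at 246 ± 23.9 TPM (SD, n = 12). Their torpor log2(FC) lay between -0.02 for Txn1 and 0.11 for Pgd. The 3 metallothioneins looked for, Mt1, Mt2 and Mt3, had no record under their mouse GeneIDs.

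Hmox1, the inducible heme oxygenase and a classical Nrf2 target, was even across the groups apart from LP-NT 01. Its level was 34.1, 27.3, 26.7 and 25.3 CPM in LP-NT 01, 02, 03 and 05, 27.8, 26.4, 27.6 and 26.1 CPM in SP-NT 19, 36, 37 and 38, and 26.4, 26.5, 25.1 and 26.0 CPM in SP-HT 02, 10, 26 and 33. Within SP-HT the SD was 0.62 CPM, a CV of 2.37%. The torpor log2(FC) was -0.06 (95% interval from -0.18 to 0.07) and the photoperiod log2(FC) was -0.07 (95% interval from -0.28 to 0.14), the latter turning to 0.03 without LP-NT 01. In the list of heme and iron genes, 0 of 5 were called by edgeR or DESeq2 in any comparison, and 0 of 5 had an unadjusted p under 0.05 in edgeR. Among all genes, an unadjusted p under 0.05 was reached by 4.84% in photoperiod, 18.4% in torpor and 15.1% in SP-HT against LP-NT (edgeR). In torpor, edgeR called 2.40% and DESeq2 6.28% of all genes. The ferritin heavy chain Fth1, at 1996 ± 194 TPM (SD, n = 12), gave a torpor log2(FC) of 0.15 ± 0.09 (SE, adjusted p = 0.403, edgeR), and the ferritin light chain Ftl1 gave 0.07 ± 0.08 (SE, adjusted p = 0.681, edgeR).

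Nqo1, a quinone reductase and another classical Nrf2 target, differed widely among hamsters of one group, with means of 14.5 ± 5.02 CPM in LP-NT, 18.0 ± 4.95 CPM in SP-NT and 19.2 ± 4.69 CPM in SP-HT (SD, n = 4). The values were 18.8, 15.6, 7.24 and 16.2 CPM in LP-NT 01, 02, 03 and 05, 17.8, 15.3, 13.9 and 25.1 CPM in SP-NT 19, 36, 37 and 38, and 16.7, 26.2, 16.6 and 17.2 CPM in SP-HT 02, 10, 26 and 33. In each group 1 hamster lay away from the rest, LP-NT 03 below and SP-NT 38 and SP-HT 10 above. Of these, only SP-HT 10 met the rule for a hamster far from the others that is given at the end. The highest CPM exceeded the lowest by a factor of 3.62, and the lowest rested on 159 counts. The SD of log2(CPM + 0.1) around the group means was 0.45, larger than in 98.8% of the 10228 genes with a mean of at least 10 CPM, whose median was 0.12. The torpor log2(FC) of 0.08 had a 95% interval from -0.35 to 0.52, and it was -0.10 without SP-HT 10 and 0.29 without SP-NT 38. For photoperiod the log2(FC) was 0.32 (95% interval from -0.28 to 0.91) and 0.10 without LP-NT 03. Across the 12 hamsters, Nqo1 and Nfe2l2 had a Pearson's r of -0.14 and a Spearman's rho of -0.09, given as a description.

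**Figure D3:**
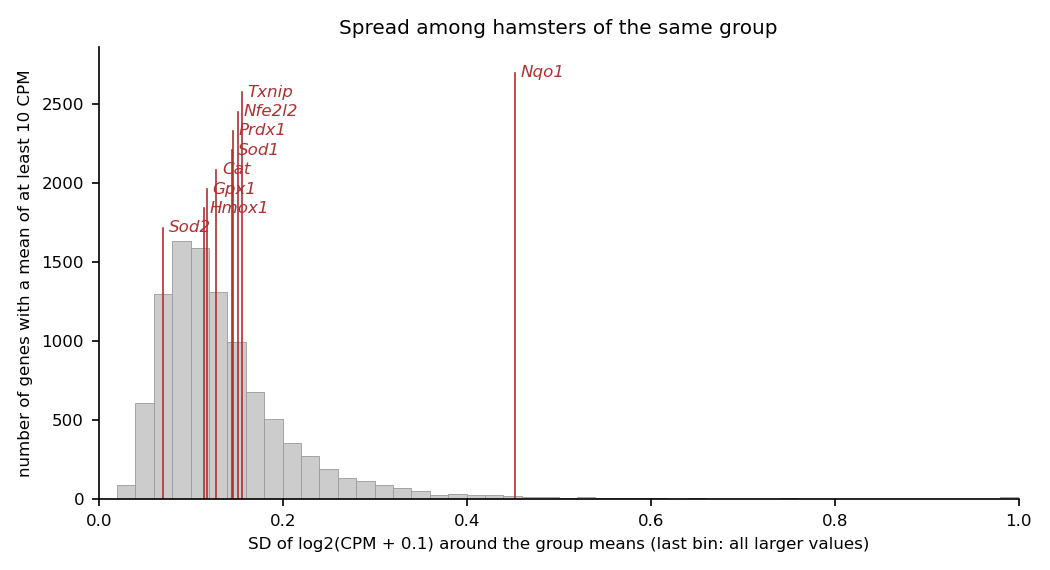
Number of genes (vertical axis) by the SD of log2(CPM + 0.1) around the group means (horizontal axis), for the 10228 genes with a mean of at least 10 CPM, and 9 of the antioxidant genes as red lines. Sod2 at 0.07 lies near the low end, Nqo1 at 0.45 in the upper tail, and the other 7 genes between 0.11 and 0.16.

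Txnip, which binds and inhibits thioredoxin and limits glucose uptake, averaged 31.3 ± 4.09 CPM in LP-NT, 29.1 ± 2.85 CPM in SP-NT and 32.4 ± 2.82 CPM in SP-HT (SD, n = 4). It had 34.6, 26.4, 34.7 and 29.5 CPM in LP-NT 01, 02, 03 and 05, 32.6, 28.9, 25.7 and 29.3 CPM in SP-NT 19, 36, 37 and 38, and 29.1, 35.9, 31.8 and 32.9 CPM in SP-HT 02, 10, 26 and 33. All groups overlapped. The torpor log2(FC) was 0.15 ± 0.09 (SE, 95% interval from -0.04 to 0.34, adjusted p = 0.370 in edgeR). Its effective length differed between hamsters from 2361 to 3180 bases. In DESeq2 the torpor log2(FC) was 0.16 without lengths (adjusted p = 0.351) and 0.25 with lengths included (adjusted p = 0.143).

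Among 5 regulators and relatives of Txnip, edgeR called 2 as lower in the hamsters labelled SP-HT than in SP-NT, Mlx and Arrdc3. These were its only calls in the 3 comparisons among the 53 pathway genes with a record, beside 2.40% of all genes called in torpor. Mlx is the partner of the glucose-sensing factors MondoA and ChREBP, which activate Txnip. It had 9.91, 7.81, 6.65 and 7.44 CPM in LP-NT 01, 02, 03 and 05, 9.03, 7.41, 8.24 and 7.71 CPM in SP-NT 19, 36, 37 and 38, and 4.38, 4.73, 6.67 and 4.36 CPM in SP-HT 02, 10, 26 and 33. Every SP-HT hamster lay below every SP-NT hamster, and SP-HT 26 just above LP-NT 03. Mlx had a torpor log2(FC) of -0.69 ± 0.15 (SE, adjusted p = 0.0438, edgeR). Arrdc3, an arrestin of the same family as Txnip, had 43.9, 40.0, 39.5 and 39.3 CPM in LP-NT 01, 02, 03 and 05, 39.5, 44.4, 39.0 and 43.8 CPM in SP-NT 19, 36, 37 and 38, and 29.9, 36.0, 34.2 and 32.6 CPM in SP-HT 02, 10, 26 and 33. Here all SP-HT values lay below all values of both other groups. For Arrdc3 the torpor log2(FC) was -0.33 ± 0.07 (SE, adjusted p = 0.0464, edgeR).

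Both calls stood close to the threshold. Mlx lost its call (adjusted p from 0.0815 to 0.114, edgeR) without any single one of the 8 hamsters of the comparison except SP-HT 26, and Arrdc3 lost it (adjusted p from 0.0591 to 0.129, edgeR) without any one of them. With a length offset the adjusted p in edgeR was 0.0685 for Mlx and 0.0597 for Arrdc3, with sex as labelled as a covariate it was 0.0585 and 0.0616, and with median-of-ratios size factors it was 0.0475 and 0.0522. In DESeq2 it was 0.00323 and 0.00502. DESeq2 called 4 of the 53 pathway genes in torpor, beside 6.28% of all genes. Mlxipl (ChREBP), Mlxip (MondoA) and Arrdc4 gave a torpor log2(FC) of -0.24, -0.10 and -0.03 (adjusted p = 0.468, 0.721 and 0.926, edgeR), and the median of the 5 genes was -0.24 in torpor and 0.03 in photoperiod. The ependyma and tanycyte list was also lower in SP-HT than in SP-NT, and its part in both calls was not tested. Within SP-HT the list was 4.95, 4.44, 3.34 and 4.61 CPM in SP-HT 02, 10, 26 and 33. It was lowest where Mlx was highest (SP-HT 26) and highest where Arrdc3 was lowest (SP-HT 02).

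**Figure D4:**
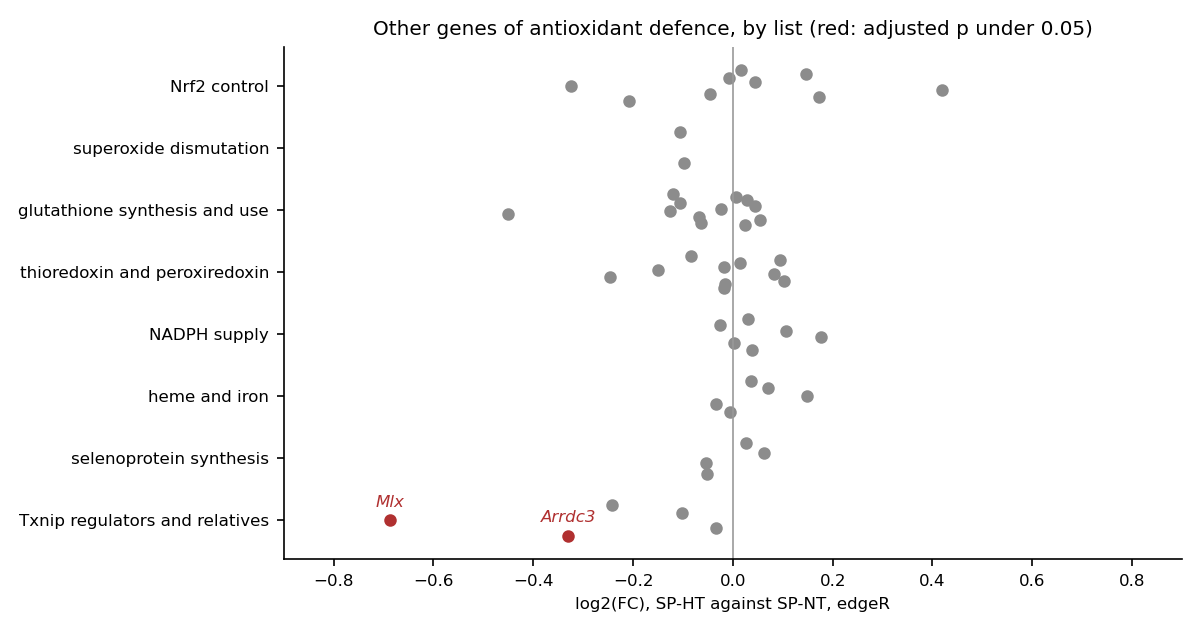
Torpor log2(FC) (SP-HT against SP-NT, edgeR, horizontal axis) of the 53 genes of the pathway lists, 1 point per gene, grouped by list on the vertical axis. Red marks Mlx and Arrdc3, the genes with an adjusted p under 0.05, both lower in SP-HT, beside 2.40% of all genes called. Both belong to the list of Txnip regulators and relatives.

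Of the 9 genes with a mean of at least 10 CPM, 5 had their highest value in LP-NT 01 (Nfe2l2, Sod1, Gpx1, Prdx1 and Hmox1), 3 in SP-HT 10 (Sod2, Nqo1 and Txnip) and 1 in SP-HT 26 (Cat), against 29.3%, 10.6% and 10.3% of all genes at that level. Without LP-NT 01, the photoperiod log2(FC) of these 5 genes was -0.05, -0.11, 0.04, -0.01 and 0.03 in the same order.

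By Pearson's correlation of log2(CPM + 0.1) over the 12 hamsters, the records most like Nfe2l2 among 13940 GeneIDs with a mean of at least 1 CPM reached r from 0.954 to 0.962, the highest being GeneID 70178. This is a description, since the 12 hamsters share groups and 1 outlying library. By Spearman's rho, 2 of these 5 records remained among the 5 most alike, GeneIDs 20133 (rho = 0.972) and 11637 (rho = 0.965). Of the other antioxidant genes, Prdx1 and Gpx1 were most like Nfe2l2 by Pearson's r with 0.63 each, and their rho was 0.36 and 0.52. By rho, Gpx1 was followed by Hmox1 (0.49) and Cat (0.48), which lay above Prdx1.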

How the data were processed

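The authors pooled trimmed reads (Trim Galore 0.6.6) of all hamsters into a de novo assembly, kept transcripts with a mouse protein hit (GRCm39), mapped each library back (Bowtie 1.3.0) and deposited RSEM 1.3.1 expected counts, TPM and an effective length per GeneID, without normalization between samples. The names of the 10 genes came with their GeneIDs, and those of pathway, marker and check genes were paired with GeneIDs from general knowledge, since the deposited tables pair none. The genes and lists were chosen with earlier results of these data known.

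Expected counts were rounded. Each comparison used its own 8 samples and genes summing to 10 counts or more in them, in edgeR 4.0.16 (quasi-likelihood, TMM, R 4.3.3), with Benjamini-Hochberg adjustment over all genes and a threshold of 0.05, without covariates. CPM used TMM factors over all 12 samples. DESeq2 1.42.0, voom with quality weights (limma 3.58.1), other size factors, filters, length offsets, 1 fit of all samples, sex as labelled and leaving out each hamster were alternatives. The fits were tested on simulated data. Named genes are all 10 members, list genes past the threshold and, in lists without one, the 1 or 2 most abundant; others were named after their values were seen. The Rbm3-ps record, the count of hamsters with the highest value and the alternatives for list genes were added after seeing the data. Each sample is 1 hamster.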

Additional observations from a re-analysis of the deposited data

Results flagged for a closer look

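In groups of 4, a hamster was taken as far from the others where its gap to the nearest one was too large a share of the group's range (Dixon's test at 95%). Of 30 groups (10 genes in 3 groups), 2 met this, where chance gives about 1 in 20, and both concern SP-HT 10. Its Sod1 level of 103.3 CPM lay below the 117.6 to 120.4 CPM of the other SP-HT hamsters. Its Nqo1 level of 26.19 CPM lay above their 16.59 to 17.16 CPM. SP-HT 10 also had the lowest sum of hypothalamic neuron markers and the highest sums of astrocyte and microglia markers. The part of these marker differences in its Sod1 and Nqo1 levels was not tested.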

How the results depend on the processing

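Of 486 values of single antioxidant genes under alternatives, 465 kept their direction and their side of the threshold, 1 passed it (Nfe2l2 in SP-HT against LP-NT, DESeq2, log2(FC) of -0.36, adjusted p = 0.0492, which made 1 gene called in place of 0), and 20 changed sign, all without a call. With voom, Sod2, Gpx1 and Gpx4 in photoperiod were 0.01, 0.02 and -0.06, and Prdx1 in SP-HT against LP-NT was 0.03. With sex as a covariate, Nqo1 in torpor was -0.0003 and Cat in SP-HT against LP-NT was -0.01. With each hamster left out, the log2(FC) in photoperiod ran from -0.04 to 0.02 for Sod2, from -0.11 to 0.04 for Gpx1, from -0.25 to 0.68 for Gpx4, from -0.12 to 0.03 for Hmox1 and from -0.05 to 0.15 for Mlx. In torpor it ran from -0.15 to 0.01 for Cat and from -0.10 to 0.29 for Nqo1, and in SP-HT against LP-NT from -0.09 to 0.07 for Cat, from -0.11 to 0.05 for Prdx1 and from -0.01 to 0.12 for Txnip. Of the 53 pathway list genes, 2 were called in torpor, beside 2.40% of all genes, and 4 with DESeq2, beside 6.28%. With median-of-ratios size factors 1 was called, with a length offset or sex as covariate 0, and with each hamster left out 0 to 1. In SP-HT against LP-NT 0 were called, beside 1.37% of all genes, and 2 with DESeq2, beside 4.37%. With DESeq2 and lengths 3 were called, and with all samples in 1 fit 2. The cause of these shifts was not tested. Over all genes, the calls in photoperiod rose from 6 to 33 with DESeq2 and 32 with lengths added. In torpor, 389 became 1017 and 759, 147 with a length offset, 242 with sex and 104 to 318 with each hamster left out. The study itself reports 32 genes in photoperiod and 759 in torpor. In SP-HT against LP-NT, 221 became 706 and 623, 416 with voom, 612 with all samples in 1 fit, 103 with a length offset and 55 to 200 with each hamster left out. TPM and counts per effective length gave the same order of levels, but both are the same measure by definition, so this is no check of the order. Gpx4 had too few counts in its short record for any statement. No paired analysis was possible because each sample came from a different hamster.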
